A study of Homo sapiens with 12 samples.

Results

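The genes described here serve protein folding in the endoplasmic reticulum (ER) and the unfolded protein response. They are 42 of the 63241 genes in the deposited count table, chosen as a fixed set of symbols matched to its gene names, and 39 of them had enough counts to be tested. They were followed in 12 RNA sequencing libraries from 2 established human glioblastoma lines, T98G and U251. The cells of interest carry the label PEPD-OE (over-expressed PEPD in the series title), and those they are set against carry the label NC, which is nowhere spelled out. PEPD is peptidase D (prolidase), which cleaves dipeptides that end in proline. The 4 groups were T98G PEPD-OE, T98G NC, U251 PEPD-OE and U251 NC, with 3 replicates each. The labels name no vector, promoter, clone, time or medium for any group, and do not say whether replicates were separate cultures, so the p-values may measure technical spread only. Fewer cells of a kind and less RNA per cell cannot be told apart in such bulk libraries.

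Secreted and membrane proteins enter the ER through the Sec61 channel, are folded by chaperones of the Hsp70 and Hsp90 families, by the lectin chaperones calnexin and calreticulin and by protein disulfide isomerases, and are sent back to the cytosol for degradation when folding fails. When unfolded proteins build up, the sensors IRE1, PERK and ATF6 slow protein synthesis and switch on chaperone and degradation genes. Active ATF6 and spliced XBP1 bind ER stress response elements in the promoters of many of these genes. Glioblastoma cells secrete much matrix and growth factor protein, and the chaperone BiP (HSPA5) is often abundant in them.

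The promoter sequences of the chaperone genes HSPA5 and HYOU1 are shown first, since these are members with an ER stress element whose levels moved in opposite directions in the lines. They are the 250 bases before the gene start in RefSeq, build GRCh38.p14, read 5′ to 3′ on the minus strand, at chr9:125241344-125241593 for HSPA5 and chr11:119057206-119057455 for HYOU1. Capitals mark the fixed letters of the motifs searched on both strands, which were the ER stress response element ERSE (CCAAT, 9 bases of any kind, N, and CCACG), its variant ERSE-II (ATTGG, 1 base N and CCACG) and the unfolded protein response element UPRE (TGACGTGG).
HSPA5: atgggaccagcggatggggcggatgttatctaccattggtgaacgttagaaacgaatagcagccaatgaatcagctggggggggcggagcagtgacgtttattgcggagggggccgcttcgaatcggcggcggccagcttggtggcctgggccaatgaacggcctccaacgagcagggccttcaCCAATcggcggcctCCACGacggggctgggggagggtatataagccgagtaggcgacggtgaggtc
HYOU1: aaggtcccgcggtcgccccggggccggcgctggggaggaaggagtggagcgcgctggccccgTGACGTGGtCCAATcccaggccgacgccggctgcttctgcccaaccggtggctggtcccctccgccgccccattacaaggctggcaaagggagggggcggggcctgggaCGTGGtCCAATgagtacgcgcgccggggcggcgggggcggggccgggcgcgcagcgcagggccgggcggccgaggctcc
HSPA5 held 1 exact ERSE, whose first base lay 66 bases before the start. HYOU1 held 2 copies of ERSE-II on the other strand, and the farther copy overlapped a UPRE.

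Exact ERSE letters stood in the promoter windows (250 bases before to 50 after a start) of 8 of the 39 members that RefSeq windows covered. They stood in 10 of 49 member windows and in 27 of 35116 windows of all genes (0.0769%), members included. For ERSE-II the counts were 3 of 49 member windows, in 3 genes, and 19 windows of all genes (0.0541%). UPRE letters stood in 3 of 49 member windows, those of DNAJC10, HYOU1 and SSR3, and in 256 windows of all genes (0.729%). Enrichment was not tested. The copies of ERSE and ERSE-II in member windows, with capitals on the fixed letters, are printed to show how the variable bases differ.
CALR, chr19:12938384-12938402, minus strand: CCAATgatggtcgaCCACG
CANX, chr5:179698778-179698796, plus strand: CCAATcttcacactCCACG
CRELD2, chr22:49918554-49918572, minus strand: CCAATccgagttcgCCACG
ERO1B, chr1:236282183-236282201, plus strand: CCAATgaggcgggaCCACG
HSP90B1, chr12:103930216-103930234, plus strand: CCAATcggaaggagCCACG
HSP90B1, chr12:103930321-103930339, minus strand: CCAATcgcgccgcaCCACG
HSPA5, chr9:125241391-125241409, minus strand: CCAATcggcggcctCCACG
PDIA6, chr2:10812853-10812871, minus strand: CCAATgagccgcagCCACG
XBP1, chr22:28800603-28800621, minus strand: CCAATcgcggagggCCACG
HERPUD1, chr16:56932025-56932035, plus strand: ATTGGgCCACG
HYOU1, chr11:119057274-119057284, plus strand: ATTGGaCCACG
HYOU1, chr11:119057380-119057390, plus strand: ATTGGaCCACG
SDF2L1, chr22:21642114-21642124, minus strand: ATTGGtCCACG
A match describes the letters of the window only, and a window without one says nothing of the factors that bind there.

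Libraries were shallow, with 464056 to 924204 counts each. Levels are given as CPM, the counts per 1e6 of the TMM-scaled library size, and 3 counts came to between 3.20 and 6.33 CPM. PEPD itself stood at 174, 156 and 162 CPM in T98G PEPD-OE against 19.0, 2.599 and 11.3 CPM in T98G NC, and at 170.3, 167 and 187 CPM in U251 PEPD-OE against 13.2, 6.44 and 8.97 CPM in U251 NC. Its level was higher in all PEPD-OE libraries (log2 fold change 4.04 in T98G and 4.16 in U251). Genes whose exons overlap a gene of the opposite strand took 62.2% to 70.1% of the counts of a library. Such genes are common, since 8773 genes were tested in all and 4176 when only genes without overlap were fitted. Many names antisense to an abundant transcript held more counts than that transcript. A value under a member is therefore what the table lists under its name, and it cannot be taken as the abundance of its transcript, a limit that holds for every level and fold change below. Mitochondrially encoded genes took 7.95% to 9.73% of the counts in T98G PEPD-OE and 5.07% to 6.14% in T98G NC. The T98G member calls, 3 higher and 10 lower, were as many without them and without TALAM1, MALAT1 and BEST1.

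Markers of the lines and of other cell types were read as a check of the labels. Of 8 glioblastoma markers 6 were tested. SOX2 averaged 276 ± 39.8 CPM in U251 PEPD-OE and 381 ± 40.2 CPM in U251 NC (SD, n = 3 each) and was at or near 0 in T98G, GFAP and NES were also far lower in T98G, and OLIG2 was at 0 in every library. CD44 went the other way and was higher in T98G NC than in U251 NC, at 798 to 808 CPM against 363 to 393 CPM. VIM fell with PEPD over-expression in both lines, by 0.61 in T98G and by 0.41 in U251 on the log2 scale. GFAP (log2 fold change -0.62, edgeR adjusted p = 2.09e-07) and SOX2 (-0.47, edgeR adjusted p = 0.00441) fell in U251 as well. Thus 3 of the 6 tested markers fell in U251 (50%, against 4.42% of all genes). In T98G 1 fell (16.7%, against 14.7% of all genes), and GFAP did not pass there (0.42, edgeR adjusted p = 0.0816). Of 5 fibroblast markers 2 were tested, COL1A2 and PDGFRB, and both rose in T98G. The summed level of the fibroblast list was 541 to 667 CPM in T98G PEPD-OE against 243 to 309 CPM in T98G NC, and 309 to 399 CPM in U251 PEPD-OE against 506 to 541 CPM in U251 NC, with COL1A1 at 14.02 CPM or less in every library and DCN and LUM at or near 0. Of 5 epithelial markers 3 were tested. In T98G CLDN4 rose (log2 fold change 2.13), KRT8 fell (-0.80) and KRT18 did not pass (-0.87), while EPCAM was at 0 and CDH1 at or near 0. The epithelial sum was 148 to 222 CPM in T98G PEPD-OE against 145.5 to 188 CPM in T98G NC, and 87.2 to 184 CPM in U251 PEPD-OE against 129 to 182 CPM in U251 NC. The part of these markers in the member changes was not tested.

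The T98G libraries numbered 2, 1 in each group, stood apart in some blood cell markers. The leukocyte antigen gene PTPRC had 38.95 CPM in T98G PEPD-OE replicate 2 and 45.48 CPM in T98G NC replicate 2, against at most 2.849 CPM in the other T98G libraries. The macrophage list as a whole summed to 57.65 CPM in T98G PEPD-OE replicate 2 and 59.77 CPM in T98G NC replicate 2, against at most 8.875 CPM in the other T98G libraries and 2.56 to 10.6 CPM in U251, with AIF1 and CD14 also highest in these libraries. CD68 and CSF1R were not, and within T98G peaked in PEPD-OE replicate 1 (2.96 and 4.44 CPM) and NC replicate 3 (2.51 and 3.76 CPM). PECAM1, an endothelial and blood cell gene, was highest in the libraries numbered 2, at 15.58 CPM in T98G PEPD-OE and 10.39 CPM in T98G NC. None of these genes passed the count filter. VWF was at 0, CDH5 near 0, and KDR at 0 in T98G and at 5.12 to 18.1 CPM in U251. Results in T98G are therefore also given without both T98G libraries numbered 2, a choice made after seeing the data.

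The 42 members together held 5480 to 6193 CPM in T98G PEPD-OE libraries against 6892 to 7082 CPM in T98G NC libraries, and 5709 to 6491 CPM in U251 PEPD-OE against 6158 to 6658 CPM in U251 NC. The summed level of the T98G groups did not overlap, while that of the U251 groups did. Per kb of exon, calreticulin (CALR) had the highest listed level of the members in every group, which does not rank the transcripts themselves. Its means were 463 CPM per kb in T98G PEPD-OE and 529.5 in T98G NC, and 646 in U251 PEPD-OE and 791 in U251 NC. HSPA5 followed in T98G NC at 217 CPM per kb, ahead of PPIB at 197 and HSP90B1 at 173. The sensor IRE1 (ERN1) had the lowest listed level of the members in T98G NC, at 0.453 CPM per kb.

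**Figure D1:**
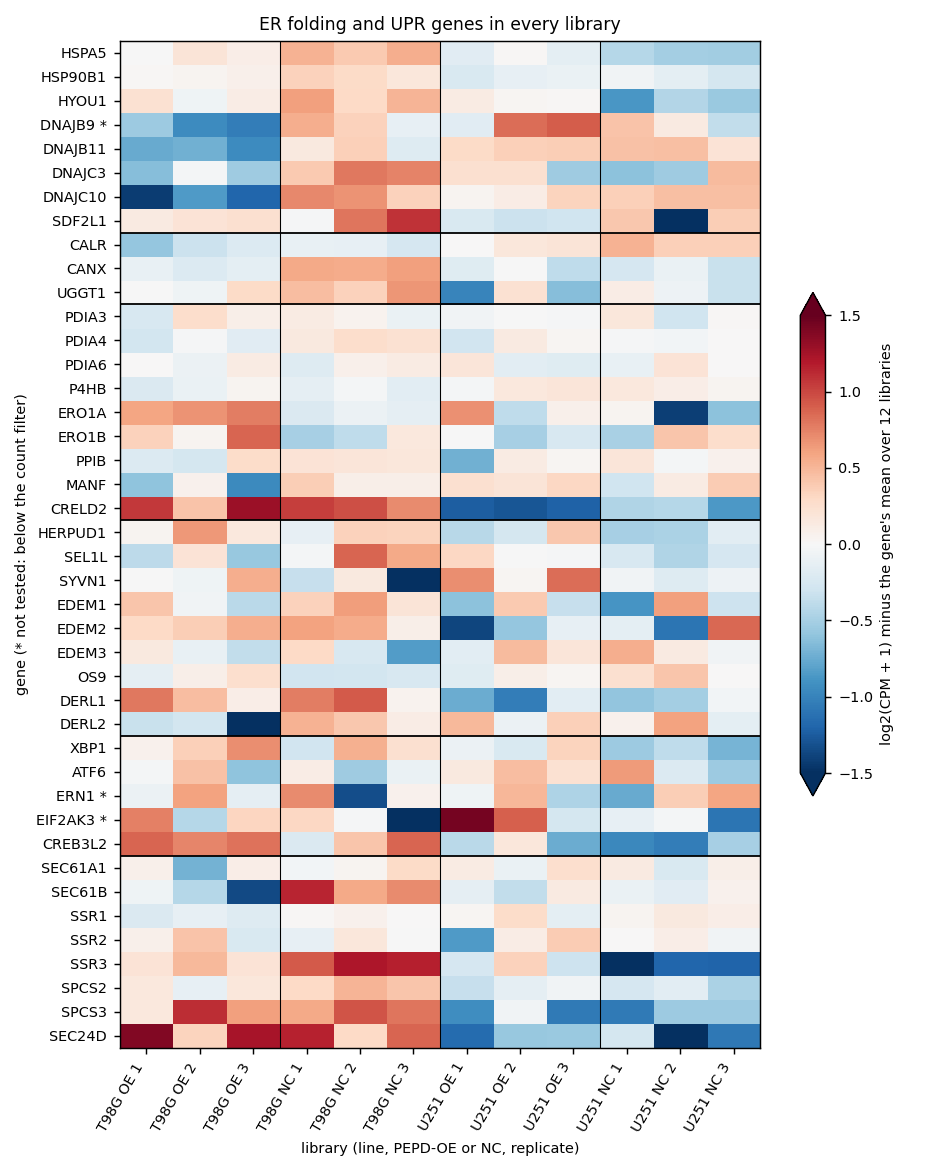
Level of each of the 42 members (vertical axis, grouped by role) in each of the 12 libraries (horizontal axis), as log2(CPM + 1) minus the gene's mean over the libraries, with colours capped at 1.5 on either side. Red is above and blue below the gene's own mean; most Hsp70 and J protein genes are bluer in T98G PEPD-OE than in T98G NC, and SSR3 is reddest in T98G NC.

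The first comparison asks what PEPD over-expression did to these genes in T98G cells. Of the 39 members tested, 10 fell and 3 rose in PEPD-OE relative to NC (edgeR adjusted p under 0.05), and 26 did not pass. Lower members made up 25.6% of those tested, against 14.7% of all genes tested, and higher members 7.69%, against 17.7% of all genes. Of all genes 32.3% passed in either direction. The median log2 fold change was -0.21 over the members and 0.00 over all 8773 genes tested. Those that fell included the J proteins DNAJC10, DNAJC3 and DNAJB11, the translocation genes SEC61B and SSR3 and the lectin chaperone calnexin.

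Among the Hsp70 and Hsp90 chaperones and their J proteins, 5 of 7 tested members fell in T98G and none rose. The lower share was 71.4%, against 14.7% of all genes, of which 17.7% rose. The median log2 fold change of this role group was -0.61. HSPA5 (BiP, ENSG00000044574, chromosome 9, 125234853 to 125241330, minus strand), the main ER Hsp70, had 600.5, 689 and 645 CPM in PEPD-OE against 865, 793 and 882 CPM in NC. All PEPD-OE libraries lay below all NC libraries, and the log2 fold change was -0.39 (SE 0.10, edgeR adjusted p = 0.00069). HYOU1 (GRP170, ENSG00000149428, chromosome 11, 119044189 to 119057202, minus strand), a large Hsp70 relative that exchanges nucleotide on BiP, had 178, 145 and 164 CPM in PEPD-OE against 232, 186 and 216 CPM in NC. These groups did not overlap either, and the log2 fold change was -0.37 (SE 0.14, edgeR adjusted p = 0.03). That call was lost without PEPD-OE replicate 2 (adjusted p = 0.166) or 3 (0.0597) and without NC replicate 1 (0.115) or 3 (0.0939).

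DNAJB11 (ERdj3, ENSG00000090520, chromosome 3, 186567403 to 186585800, plus strand), which hands unfolded proteins to BiP, had 45.9, 46.7 and 39.9 CPM in PEPD-OE against 86.5, 100 and 67.7 CPM in NC. Every PEPD-OE library was below the lowest NC library (log2 fold change -0.93, SE 0.20, edgeR adjusted p = 7.74e-05). DNAJC3 (p58IPK, ENSG00000102580, chromosome 13, 95677139 to 95794989, plus strand), a BiP co-chaperone, had 11.8, 18.7 and 12.8 CPM in PEPD-OE against 25.3, 33.8 and 32.6 CPM in NC. The groups were again apart (log2 fold change -1.11, SE 0.34, edgeR adjusted p = 0.00674). DNAJC10 (ERdj5, ENSG00000077232, chromosome 2, 182716041 to 182794464, plus strand), a J protein that also reduces disulfide bonds, had 5.92, 9.35 and 7.12 CPM in PEPD-OE against 29.5, 28.6 and 22.6 CPM in NC. Its log2 fold change, -1.81 (SE 0.40, edgeR adjusted p = 0.000102), was the most negative of all members, although it rests on 15 counts over the PEPD-OE libraries and 54 over the NC libraries. HSP90B1 (GRP94), the ER Hsp90, averaged 695 ± 13.3 CPM in PEPD-OE and 813 ± 52.1 CPM in NC and did not pass (log2 fold change -0.22, edgeR adjusted p = 0.065). SDF2L1, an ER stress gene that assists J proteins, averaged 12.4 ± 0.501 CPM in PEPD-OE and 18.0 ± 6.77 CPM in NC and did not pass. DNAJB9 (ERdj4), which holds IRE1 in check, was too low to be tested, with 7 counts over the PEPD-OE libraries and 17 over the NC libraries.

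Among the 3 lectin chaperones, calnexin fell (33.3%, against 14.7% of all genes) and the other 2 did not pass. CANX (calnexin, ENSG00000127022, chromosome 5, 179678628 to 179730925, plus strand), the membrane-bound lectin chaperone, had 561, 528 and 548 CPM in PEPD-OE against 899, 896 and 928 CPM in NC. The libraries of each group lay close together and the groups far apart (log2 fold change -0.73, SE 0.10, edgeR adjusted p = 2.53e-10). CALR, its soluble counterpart, had 1081, 1292 and 1393 CPM in PEPD-OE against 1488, 1473 and 1350.0 CPM in NC. These groups overlapped, and the log2 fold change of -0.19 did not pass (edgeR adjusted p = 0.0689). UGGT1, which puts glucose back on misfolded glycoproteins so that they are bound again, had 48.8, 46.7 and 59.8 CPM in PEPD-OE against 67.5, 62.4 and 77.8 CPM in NC (log2 fold change -0.42, edgeR adjusted p = 0.128).

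Of the 9 disulfide enzymes and other folding factors, 1 was lower and 2 were higher in T98G. These shares, 11.1% and 22.2%, were near the 14.7% and 17.7% of all genes. PDIA4 (ERp72), a disulfide isomerase, had 268, 319 and 286 CPM in PEPD-OE against 359, 387 and 380.1 CPM in NC, and its log2 fold change was -0.37 (SE 0.12, edgeR adjusted p = 0.0079). Its groups did not overlap, and the call was lost without PEPD-OE replicate 1 (adjusted p = 0.0717). ERO1A, an oxidase that reloads disulfide isomerases, had 34.0, 35.8 and 38.5 CPM in PEPD-OE against 19.0, 20.8 and 20.1 CPM in NC (log2 fold change 0.84, SE 0.31, edgeR adjusted p = 0.0239). ERO1B, the second such oxidase, had 50.3, 40.5 and 72.7 CPM in PEPD-OE against 27.4, 29.9 and 43.9 CPM in NC, and here the groups overlapped (log2 fold change 0.66, SE 0.25, edgeR adjusted p = 0.0287). Both oxidase calls were lost when some single libraries were left out. That of ERO1A was lost without PEPD-OE replicate 3 (0.0733) or NC replicate 1 (0.05), 2 (0.057) or 3 (0.0687), and that of ERO1B without PEPD-OE replicate 3 (0.325) or NC replicate 1 (0.0955) or 2 (0.147). The isomerases PDIA3, PDIA6 and P4HB had log2 fold changes of 0.03, -0.01 and 0.02, the proline isomerase PPIB -0.22, and the secreted stress factors MANF and CRELD2 -0.63 and 0.08, and none of these passed.

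Of 9 genes of ER-associated degradation 1 fell and 1 rose in T98G, 11.1% each, against 14.7% and 17.7% of all genes. SEL1L, the scaffold of the HRD1 ligase that moves misfolded proteins out of the ER, had 16.3, 24.9 and 14.2 CPM in PEPD-OE against 21.1, 40.3 and 32.6 CPM in NC, with 1 PEPD-OE library above the lowest NC library (log2 fold change -0.82, SE 0.31, edgeR adjusted p = 0.0332). OS9, a lectin that delivers glycoproteins to that ligase, had 176, 206 and 231 CPM in PEPD-OE against 158, 159.8 and 163 CPM in NC (log2 fold change 0.35, SE 0.14, edgeR adjusted p = 0.0423). Both calls were fragile. That of SEL1L was lost without PEPD-OE replicate 1 (0.112) or 3 (0.157) or NC replicate 2 (0.225) or 3 (0.0777), and that of OS9 without PEPD-OE replicate 2 (0.103) or 3 (0.247) or any NC replicate (0.0844 without replicate 1, 0.121 without 2 and 0.0909 without 3). The ligase itself, SYVN1 (HRD1), the stress gene HERPUD1, the mannosidase-like EDEM1, EDEM2 and EDEM3 and the channel proteins DERL1 and DERL2 did not pass. Their log2 fold changes ran from -1.07 (DERL2, on 14 counts over PEPD-OE and 30 over NC libraries) to 0.67 (SYVN1).

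None of the 3 tested sensors and transcription factors passed in T98G, where 32.3% of all genes passed in either direction. XBP1, the factor that IRE1 activates by splicing, averaged 44.9 ± 10.1 CPM in PEPD-OE and 39.0 ± 11.0 CPM in NC. ATF6, the membrane-bound sensor and factor, averaged 13.5 ± 5.08 CPM in PEPD-OE and 12.1 ± 2.86 CPM in NC, and CREB3L2, its relative in secretory cells, 39.6 ± 2.03 CPM in PEPD-OE and 30.1 ± 11.2 CPM in NC. At this depth no difference was detectable for them. ERN1 and EIF2AK3 (PERK) were not tested, with 11 and 17 counts over the T98G PEPD-OE libraries and 9 and 10 over the T98G NC libraries.

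Of the 8 genes of translocation, signal cleavage and export, 2 fell in T98G and none rose. The lower share was 25%, against 14.7% of all genes, of which 17.7% rose. SEC61B (ENSG00000106803, chromosome 9, 99222064 to 99230615, plus strand), the small beta subunit of the Sec61 channel, had 22.2, 17.1 and 8.55 CPM in PEPD-OE against 52.8, 35.1 and 38.9 CPM in NC. The highest PEPD-OE library was below the lowest NC library (log2 fold change -1.36, SE 0.31, edgeR adjusted p = 0.000162). SSR3 (ENSG00000114850, chromosome 3, 156540140 to 156555184, minus strand), the gamma subunit of the translocon-associated protein complex, had 35.5, 43.6 and 35.6 CPM in PEPD-OE against 59.1, 72.8 and 70.2 CPM in NC. Its groups were also apart (log2 fold change -0.84, SE 0.23, edgeR adjusted p = 0.00172). The channel subunit SEC61A1, the complex subunits SSR1 and SSR2, the signal peptidase subunits SPCS2 and SPCS3 and the export coat gene SEC24D had log2 fold changes from -0.35 (SPCS2) to 0.30 (SEC24D) and did not pass.

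Across the 39 tested members the T98G PEPD-OE libraries lay wholly below the NC libraries for 15 and wholly above for 2, against 20.9% and 22.6% of all genes tested (43.5% on either side). The 10 lower calls became 8 to 12 when single libraries were left out. The 3 higher calls were all lost without PEPD-OE replicate 3, NC replicate 1 or NC replicate 2, and 2 were lost without NC replicate 3. DESeq2 and the fit with no count filter called no higher member. Without both T98G libraries numbered 2, 9 members were lower and 0 higher. HYOU1 (adjusted p = 0.102), SEL1L (0.128), ERO1A (0.0853), ERO1B (0.0625) and OS9 (0.182) no longer passed in edgeR, and MANF did (0.0294), whereas HSPA5 still fell (-0.49, edgeR adjusted p = 0.00108).

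**Figure D2:**
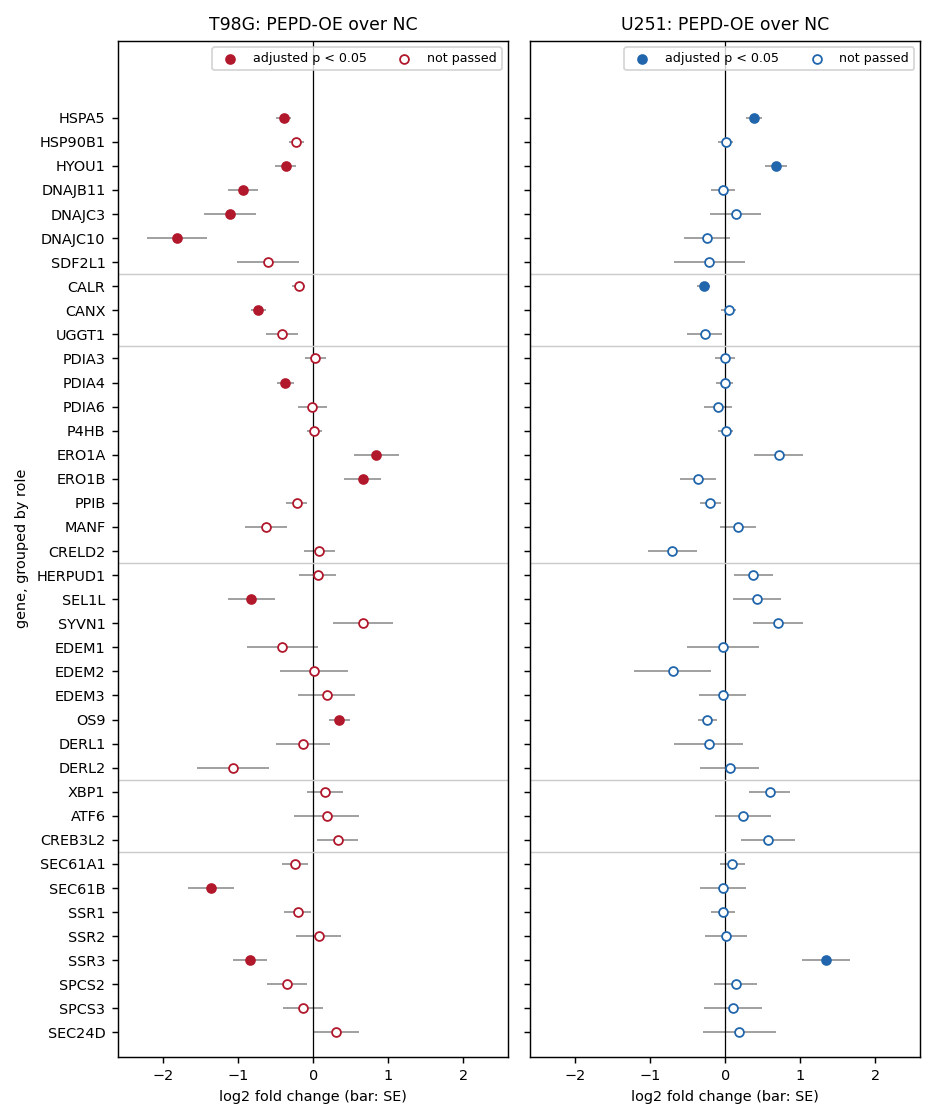
Log2 fold change of PEPD-OE over NC (horizontal axis) for each of the 39 tested members (vertical axis, grouped by role) in T98G, left, and U251, right, with bars of 1 SE and filled points for edgeR adjusted p under 0.05. Filled points stand left of 0 for 10 members and right of it for 3 in T98G, against 1 and 3 in U251.

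In U251 cells fewer members passed, and the direction of HSPA5, HYOU1 and SSR3 was the opposite of that in T98G. Of 39 tested members 3 rose and 1 fell in PEPD-OE relative to NC, 7.69% and 2.56%, against 4.13% higher, 4.42% lower and 8.55% in either direction among all genes tested. The median log2 fold change was 0.00 over the members and 0.00 over all genes. The PEPD-OE libraries lay wholly above the NC libraries for 6 members and wholly below for 3, against 11.4% and 11% of all genes (22.4% on either side).

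HSPA5 had 533, 608 and 542 CPM in U251 PEPD-OE against 449, 424 and 419 CPM in U251 NC, so that all PEPD-OE libraries were higher (log2 fold change 0.38, SE 0.10, edgeR adjusted p = 0.00598). HYOU1 had 164, 154 and 153 CPM in PEPD-OE against 81.9, 111 and 102 CPM in NC, again without overlap (log2 fold change 0.67, SE 0.15, edgeR adjusted p = 0.000494). These are the Hsp70 chaperone and its nucleotide exchange factor, and both rose. SSR3 had 25.6, 39.4 and 24.6 CPM in PEPD-OE against 9.63, 12.9 and 12.8 CPM in NC, with the lowest PEPD-OE library above the highest NC library (log2 fold change 1.34, SE 0.32, edgeR adjusted p = 0.0017). Without PEPD-OE replicate 2 the calls of HSPA5 (adjusted p = 0.0759) and SSR3 (0.0639) were lost, which left 1 higher member. CALR, which did not pass in T98G, had 1618, 1805 and 1840.0 CPM in PEPD-OE against 2316, 2065 and 2060.0 CPM in NC and fell (log2 fold change -0.29, SE 0.08, edgeR adjusted p = 0.0128). Its groups did not overlap, but the call was lost without PEPD-OE replicate 1 (0.05) or NC replicate 1 (0.149). PEPD-OE replicate 1 stood somewhat apart from the other libraries of its group, and without it HSPA5, HYOU1 and SSR3 still passed.

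The remaining U251 members did not pass. The J proteins that fell in T98G averaged 98.5 ± 3.12 CPM in PEPD-OE and 101 ± 9.69 CPM in NC for DNAJB11, 19.4 ± 5.67 CPM in PEPD-OE and 17.3 ± 8.35 CPM in NC for DNAJC3, and 19.9 ± 2.27 CPM in PEPD-OE and 23.9 ± 0.888 CPM in NC for DNAJC10. Calnexin averaged 536 ± 69.9 CPM in PEPD-OE and 519 ± 43.5 CPM in NC, and SEC61B 21.5 ± 3.88 CPM in PEPD-OE and 22.2 ± 1.92 CPM in NC. XBP1 had 31.6, 28.6 and 42.7 CPM in PEPD-OE against 22.9, 25.8 and 20.5 CPM in NC, libraries that did not overlap, but its log2 fold change did not pass (0.59, SE 0.27, edgeR adjusted p = 0.178). SEL1L and SYVN1 likewise had all PEPD-OE libraries above all NC libraries without passing (log2 fold changes 0.42 and 0.70). CRELD2 and DNAJC10 went the other way, each with all PEPD-OE libraries below all NC libraries and without passing. CRELD2 averaged 13.5 ± 0.376 CPM in PEPD-OE and 22.2 ± 3.67 CPM in NC (log2 fold change -0.71, edgeR adjusted p = 0.191). DNAJC10 had 18.1, 19.1 and 22.4 CPM in PEPD-OE against 22.9, 24.5 and 24.3 CPM in NC (log2 fold change -0.25, edgeR adjusted p = 0.727).

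**Figure D3:**
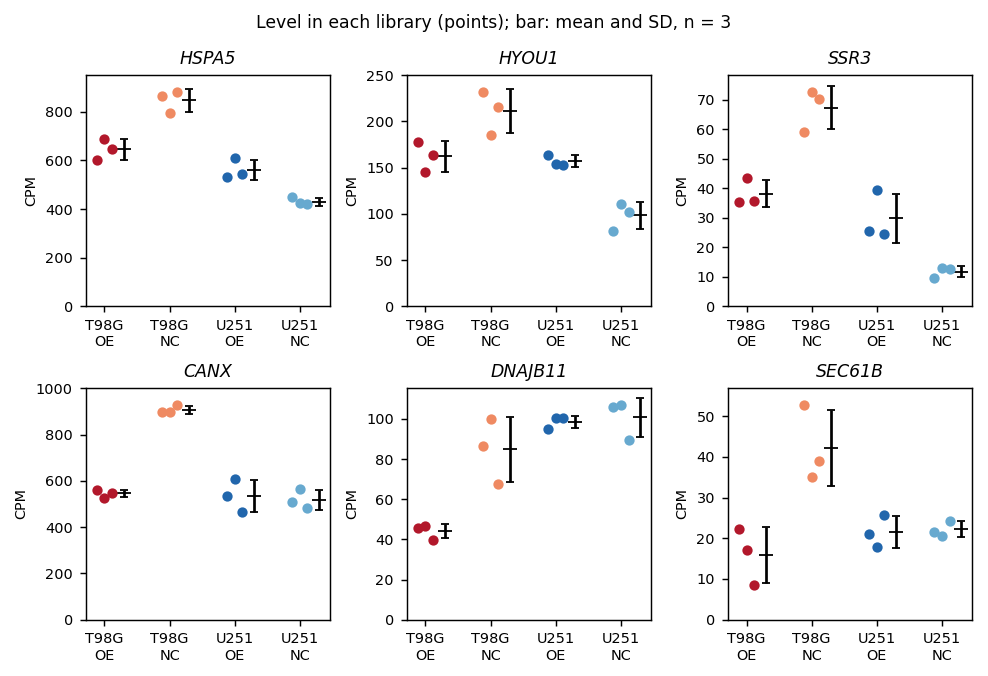
Level in CPM (vertical axis, from 0) of 6 members in each library of T98G PEPD-OE, T98G NC, U251 PEPD-OE and U251 NC (horizontal axis); points are libraries and the bar beside them is the mean with 1 SD (n = 3). HSPA5, HYOU1 and SSR3 lie below NC in T98G PEPD-OE and above NC in U251 PEPD-OE, while CANX, DNAJB11 and SEC61B lie below NC in T98G PEPD-OE and have U251 groups that overlap.

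Whether the response differed between the lines was tested as an interaction, the T98G log2 fold change less that of U251. The difference passed for 11 of 39 members, with 9 lower in T98G than in U251 (23.1%, against 13.6% of all genes) and 2 higher (5.13%, against 14.1%). Of all genes 27.7% passed in either direction. The median difference was -0.24 over the members and -0.02 over all genes. SSR3 had the most negative difference, -2.18 (SE 0.39, edgeR adjusted p = 1.89e-06). HSPA5 differed by -0.77 (SE 0.14, edgeR adjusted p = 2.61e-06) and HYOU1 by -1.04 (SE 0.20, edgeR adjusted p = 1.13e-05). For these 3 genes both the fall in T98G and the rise in U251 passed. CANX differed by -0.78 (SE 0.14, edgeR adjusted p = 2.72e-06) and DNAJB11 by -0.90 (SE 0.26, edgeR adjusted p = 0.004), so their log2 fold changes were lower in T98G. DNAJC10 (-1.56, adjusted p = 0.0139), DNAJC3 (-1.25, 0.0419), SEC61B (-1.33, 0.0142) and SEL1L (-1.24, 0.0264) also passed in edgeR's test. ERO1B (1.02, adjusted p = 0.0172) and OS9 (0.59, 0.0108) were the members with a positive difference. The T98G and U251 comparisons share no libraries.

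Several of these differences were lost when some single libraries were left out. That of DNAJC3 was lost without T98G PEPD-OE replicate 1 (0.105) or 3 (0.0892), T98G NC replicate 2 (0.0829) or 3 (0.0789), U251 PEPD-OE replicate 1 (0.0903) or 2 (0.127), or U251 NC replicate 1 (0.125) or 2 (0.11). That of SEL1L was lost without T98G PEPD-OE replicate 1 (0.0639) or 3 (0.0826), T98G NC replicate 2 (0.113), U251 PEPD-OE replicate 1 (0.0608) or U251 NC replicate 2 (0.0568). That of ERO1B was lost without T98G PEPD-OE replicate 3 (0.13), T98G NC replicate 2 (0.0612), U251 PEPD-OE replicate 2 (0.0561) or U251 NC replicate 2 (0.0849) or 3 (0.0548). Those of OS9 (0.059) and SEC61B (0.0928) were lost without T98G PEPD-OE replicate 3, and that of SEC61B without U251 PEPD-OE replicate 3 (0.0625). The differences of SSR3, HYOU1, HSPA5, CANX, DNAJB11 and DNAJC10 passed without each library in turn. Without both T98G libraries numbered 2, 7 members had a negative and 2 a positive difference. DNAJB11 (adjusted p = 0.0571), DNAJC3 (0.0575) and SEL1L (0.0664) no longer passed in edgeR, MANF did (0.037), and SSR3 (-2.23), HYOU1 (-1.07) and HSPA5 (-0.88) still did.

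The control cells of the lines were compared to see where each line started, as T98G NC minus U251 NC. Of 39 members 17 were higher in T98G NC and 2 lower, 43.6% and 5.13%, against 24.4% and 24.3% of all genes tested (48.7% in either direction). The T98G NC libraries lay wholly above the U251 NC libraries for 17 members and wholly below for 3, against 27.7% and 27.4% of all genes (55.1% on either side). The median log2 difference was 0.41 over the members and 0.00 over all genes. These contrasts share the NC libraries with the PEPD-OE comparisons, so the same control libraries enter both values of a gene.

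SSR3 was 67.4 ± 7.28 CPM in T98G NC and 11.8 ± 1.86 CPM in U251 NC, the largest log2 difference of the members at 2.52 (SE 0.28, edgeR adjusted p = 7.19e-15). HSPA5 was 846 ± 47.5 CPM in T98G NC and 431 ± 16.2 CPM in U251 NC (log2 difference 0.97, SE 0.10, edgeR adjusted p = 1.92e-16), and HYOU1 211 ± 23.5 CPM in T98G NC and 98.4 ± 14.9 CPM in U251 NC (1.09, SE 0.15, edgeR adjusted p = 4.79e-11). The 3 genes with opposite changes in the lines were thus all higher in T98G NC. In PEPD-OE cells the same genes averaged 38.2 ± 4.66 CPM in T98G and 29.9 ± 8.28 CPM in U251 for SSR3, 645 ± 44.1 CPM in T98G and 561 ± 40.5 CPM in U251 for HSPA5, and 162 ± 16.4 CPM in T98G and 157 ± 6.32 CPM in U251 for HYOU1. That contrast between PEPD-OE groups was not tested.

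Further chaperones and folding factors were higher in T98G NC. CANX was 908 ± 17.7 CPM in T98G NC and 519 ± 43.5 CPM in U251 NC (log2 difference 0.81). HSP90B1 had 861, 821 and 758 CPM in T98G NC against 649, 608 and 564 CPM in U251 NC (0.42, edgeR adjusted p = 0.00012). The stress factor CRELD2 had 69.6, 66.3 and 55.2 CPM in T98G NC against 24.1, 24.5 and 17.9 CPM in U251 NC (1.50, edgeR adjusted p = 8.89e-08). None of these pairs of groups overlapped. UGGT1 had 67.5, 62.4 and 77.8 CPM in T98G NC against 53.0, 46.4 and 38.4 CPM in U251 NC (0.59, edgeR adjusted p = 0.015). DNAJC3 was also higher (0.85, edgeR adjusted p = 0.0191), although 1 U251 NC library reached 26.9 CPM, above the lowest T98G NC library at 25.3 CPM. Among the transcription factors, XBP1 had 27.4, 49.4 and 40.1 CPM in T98G NC against 22.9, 25.8 and 20.5 CPM in U251 NC (0.81, edgeR adjusted p = 0.00891). CREB3L2 had 19.0, 29.9 and 41.4 CPM in T98G NC against 10.8, 10.3 and 15.4 CPM in U251 NC (1.37, edgeR adjusted p = 0.000258). Neither pair of groups overlapped.

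The secretory machinery showed the same direction. SEC24D, a cargo-binding coat subunit, had 33.8, 18.2 and 27.6 CPM in T98G NC against 12.04, 3.87 and 6.40 CPM in U251 NC (1.75, edgeR adjusted p = 0.000101). SPCS3, the signal peptidase subunit, had 31.6, 41.6 and 37.6 CPM in T98G NC against 9.63, 14.2 and 14.1 CPM in U251 NC (1.57, edgeR adjusted p = 1.31e-05). These groups were apart for both genes. SPCS2, another signal peptidase subunit, had 35.9, 41.6 and 38.9 CPM in T98G NC against 24.1, 25.8 and 20.5 CPM in U251 NC (0.73, edgeR adjusted p = 0.017), and SEC61B also passed (0.88, edgeR adjusted p = 0.00532). Of the degradation genes, HERPUD1, which recruits the ligase to its substrates, had 31.6, 44.2 and 43.9 CPM in T98G NC against 24.1, 24.5 and 30.7 CPM in U251 NC (0.63, edgeR adjusted p = 0.0381). DERL1 had 23.2, 26.0 and 13.8 CPM in T98G NC against 8.43, 9.02 and 12.8 CPM in U251 NC (1.03, edgeR adjusted p = 0.0236), and SEL1L passed as well (0.92, edgeR adjusted p = 0.00866). The exceptions were CALR, at 1437 ± 75.9 CPM in T98G NC and 2147 ± 147 CPM in U251 NC (-0.58, edgeR adjusted p = 1.05e-09), and OS9, at 160.4 ± 2.46 CPM in T98G NC and 227 ± 32.2 CPM in U251 NC (-0.50, edgeR adjusted p = 0.00105). The count of 17 fell to 11 without T98G NC replicate 2, which XBP1 (adjusted p = 0.114), SEL1L (0.107), DERL1 (0.171), SPCS2 (0.0673), DNAJC3 (0.0715) and HERPUD1 (0.125) needed. This is 1 of the libraries with blood cell markers, and without both of them 11 members were higher as well. Calls also went without T98G NC replicate 1 for DERL1 (0.0547), without T98G NC replicate 3 for DNAJC3 (0.0646), HERPUD1 (0.129) and UGGT1 (0.111), without U251 NC replicate 1 for DERL1 (0.087), DNAJC3 (0.131) and HERPUD1 (0.115), without U251 NC replicate 2 for DERL1 (0.0693), DNAJC3 (0.104) and HERPUD1 (0.105), and without U251 NC replicate 3 for SPCS2 (0.0684) and UGGT1 (0.0965).

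Of the 42 members, 15 of the 39 tested passed in none of the 4 contrasts. Their mean levels in T98G NC ran from 11.96 ± 6.62 CPM (SYVN1) to 539 ± 27.4 CPM (P4HB). PDIA3, PDIA6, PPIB, SDF2L1, EDEM1, EDEM2, EDEM3, ATF6, SEC61A1 and SSR2 had libraries that overlapped in each comparison of groups made here. P4HB, the beta subunit of prolyl 4-hydroxylase and a disulfide isomerase, averaged 545 ± 49.4 CPM in T98G PEPD-OE, 539 ± 27.4 CPM in T98G NC, 626 ± 48.9 CPM in U251 PEPD-OE and 624 ± 24.7 CPM in U251 NC, and its T98G NC libraries lay below its U251 NC libraries without a call.

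Because counts often stood under the opposite strand, the member values were set beside those of genes with exons on that strand. Exons of 22 members overlapped such a gene, and 20 members had no overlap. Without overlap 7 of 19 tested members fell in T98G (36.8%) and 1 rose (5.26%), with a median log2 fold change of -0.37. With overlap 3 of 20 fell (15%) and 2 rose (10%), with a median of -0.16. Of all genes tested 14.7% fell and 17.7% rose, so the lower share with overlap was near that of all genes. When genes without overlap were fitted alone, 490 of 4176 tested genes fell in T98G and 650 rose. HSPA5, SSR3, DNAJC3, DNAJC10, SEC61B, PDIA4, SEL1L and ERO1B had no opposite exon, while HYOU1, DNAJB11, CANX, CALR, ERO1A and OS9 did.

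For 20 members an opposite-strand gene had at least 10 counts. AC145207.3, a noncoding gene wholly inside P4HB exons on the other strand, held 12319 counts against 5236 under P4HB, 23.6-fold more per kb. The reverse was seen for CALR, where AC092069.1, wholly inside its exons, held 290 counts against 14897. Per kb that was 0.196 times the counts under CALR. AC025165.2, inside OS9 exons, held 5662 counts against 1751 under OS9. It had 666, 656 and 638 CPM in T98G PEPD-OE against 447, 503 and 450.0 CPM in T98G NC (log2 fold change 0.48, edgeR adjusted p = 4.81e-05), and it fell in U251 (-0.34, edgeR adjusted p = 0.0127), where OS9 itself did not pass (-0.24). The U251 call of AC025165.2 was lost without U251 PEPD-OE replicate 2 (0.118) or U251 NC replicate 1 (0.0724) or 3 (0.113). HYOU1-AS1 (AP003392.3 in GENCODE), with 99.85% of its exon bases opposite HYOU1 exons, held 733 counts against 1368 under HYOU1, 6.18-fold more per kb. It had 68.0, 74.8 and 69.8 CPM in T98G PEPD-OE against 76.0, 84.5 and 72.8 CPM in T98G NC, and 78.3, 71.6 and 110.0 CPM in U251 PEPD-OE against 84.3, 79.9 and 108 CPM in U251 NC. Its log2 fold changes of -0.14 in T98G and -0.05 in U251 did not pass, so that the change under HYOU1, higher in U251 and lower in T98G, was not seen under this name. AL133453.1, inside ERO1A exons, did not pass either (0.09 in T98G and 0.13 in U251), and it held 95.6-fold more counts per kb than ERO1A.

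ATP6V1C2, a proton pump gene partly opposite PDIA6, held 43851 counts against 605 under PDIA6 and was lower in T98G PEPD-OE (log2 fold change -0.22, edgeR adjusted p = 0.00605), which did not pass when T98G PEPD-OE replicate 1 was left out (0.073). SNX22, a sorting nexin gene partly opposite PPIB, held 46266 counts against 3014 under PPIB and was also lower there (-0.28, edgeR adjusted p = 0.000636). AC104134.1, which shares part of its exons with EIF2AK3, held 1197 counts against 68 under EIF2AK3. It rose in T98G (0.79, edgeR adjusted p = 5.08e-06), at 201, 223 and 162 CPM in PEPD-OE against 92.8, 125 and 115 CPM in NC. It rose in U251 as well (0.48, edgeR adjusted p = 0.0283), although not without U251 PEPD-OE replicate 2 (0.259) or U251 NC replicate 1 (0.123), 2 (0.0653) or 3 (0.0624). Which transcripts gave these reads was not tested.

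**Figure D4:**
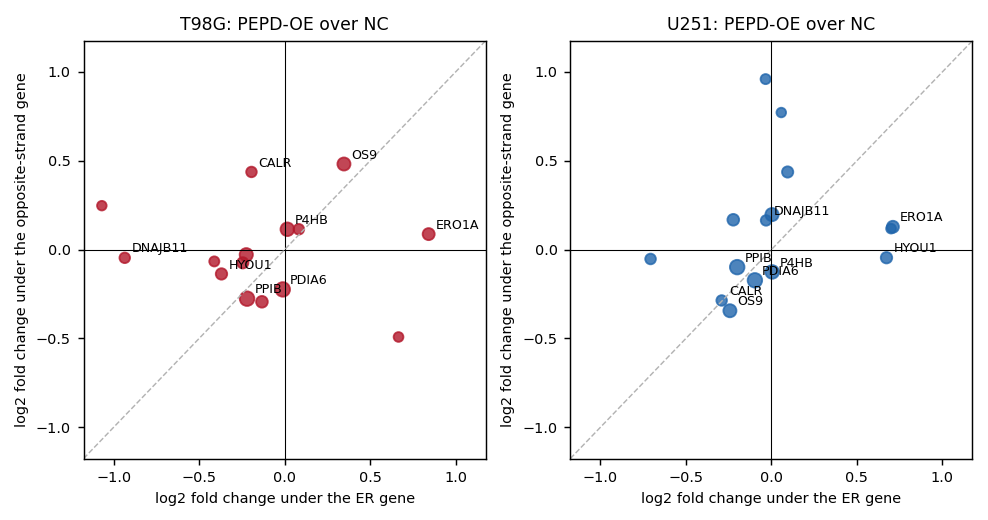
Log2 fold change of PEPD-OE over NC under a member (horizontal axis) and under the gene whose exons lie opposite it (vertical axis) in T98G, left, and U251, right, for 15 pairs with both genes tested; larger points have more counts under the opposite gene, and the dashed line marks equal change. OS9 lies in the same quadrant as its partner in both lines, while ERO1A, DNAJB11 in T98G and HYOU1 in U251 lie near a partner change of 0.

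Members were also set out by promoter element. Shares of all genes called, 17.7% higher and 14.7% lower in T98G and 4.13% and 4.42% in U251, stand beside these small counts, and nothing is read from them about the elements. The 11 tested members with an ERSE or ERSE-II held 1 higher and 3 lower calls in T98G (median log2 fold change -0.19) and 2 higher and 1 lower in U251 (0.00). The 25 tested members whose windows held neither had 2 higher and 7 lower calls in T98G (-0.24) and 1 higher and 0 lower in U251 (0.01). Between the control cells the medians were 0.81 for members with an ERSE or ERSE-II and 0.15 for those with neither. In T98G the members with an ERSE or ERSE-II that fell were HSPA5, HYOU1 and CANX. Those that rose in U251 were HSPA5 and HYOU1, whose promoters are printed above. DNAJC10 and SSR3, whose windows held a UPRE, were counted with the members that had neither. Both fell in T98G, and SSR3 rose in U251.

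Beyond the members, 96 of 112 other genes of ER function were tested. In T98G 4 rose and 12 fell, 4.17% and 12.5%, and in U251 3 rose and 3 fell, 3.12% each, against the shares of all genes given above. The difference between the lines passed for 4 in the positive and 13 in the negative direction, 4.17% and 13.5%, against 14.1% and 13.6% of all genes. In a list of PERK arm genes and ATF4 outputs the changes differed between the lines, although PERK activity was not measured. Of the 7 tested genes of that list 3 fell in T98G (42.9%, against 14.7% of all genes) and none rose (17.7% of all genes). In U251 2 rose (28.6%, against 4.13% of all genes) and none fell (4.42% of all genes). The difference was negative for 5 (71.4%, against 13.6% of all genes) and positive for none.

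PPP1R15A (GADD34), which helps to restart protein synthesis by dephosphorylating eIF2 alpha, had 66.6, 79.5 and 88.3 CPM in T98G PEPD-OE against 171, 139 and 152 CPM in T98G NC (log2 fold change -0.96, edgeR adjusted p = 4.19e-07). In U251 it had 128, 135 and 166 CPM in PEPD-OE against 61.4, 47.7 and 62.8 CPM in NC (1.32, edgeR adjusted p = 7.28e-11). The groups were apart in both lines, and the difference was -2.29 (edgeR adjusted p = 5.44e-16). ATF4, the factor translated when PERK is active, averaged 118 ± 21.7 CPM in T98G PEPD-OE and 198 ± 25.1 CPM in T98G NC (-0.76, edgeR adjusted p = 9.92e-06) and did not pass in U251 (0.29). NUPR1, a stress-induced nuclear protein, averaged 27.2 ± 4.78 CPM in T98G PEPD-OE and 82.2 ± 4.53 CPM in T98G NC (-1.60, edgeR adjusted p = 2.04e-09). TRIB3, a pseudokinase that ATF4 induces, averaged 22.4 ± 8.26 CPM in U251 PEPD-OE and 6.23 ± 1.90 CPM in U251 NC (1.86, edgeR adjusted p = 0.000607). These 4 genes share no exon with the opposite strand.

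Among genes of export from the ER, MIA3 (TANGO1), which loads collagen into carriers, rose in T98G, where it had 586, 424 and 402 CPM in PEPD-OE against 222, 198 and 224 CPM in NC (log2 fold change 1.14, edgeR adjusted p = 1.48e-14). LMAN1, a lectin that carries glycoproteins to the Golgi, had 144, 112 and 89.8 CPM in T98G PEPD-OE against 44.3, 55.9 and 53.9 CPM in T98G NC (1.14, edgeR adjusted p = 4.08e-07). Both passed without each library in turn, and neither passed in U251 (-0.13 for MIA3 and 0.61 for LMAN1). The coat gene SEC23A also rose in T98G (1.19, edgeR adjusted p = 0.00145), although not without T98G NC replicate 2 (0.0536), and not without both T98G libraries numbered 2 (0.0588). In the list of other coat genes, which holds MIA3 and SEC23A, 2 of 11 tested genes rose in T98G and 1 fell. These shares, 18.2% and 9.09%, stand against 17.7% and 14.7% of all genes. The translocation genes that fell in T98G without loss under any left-out library were SPCS1, a signal peptidase subunit with 58.1% of its exon bases opposite another gene (-0.85, edgeR adjusted p = 1.37e-06) and SEC63, a Sec61 partner (-0.77, edgeR adjusted p = 0.00336). Of 11 oligosaccharyltransferase genes 8 were tested, and only DDOST passed in T98G (-0.64, edgeR adjusted p = 0.0206) and in U251 (-0.56, edgeR adjusted p = 0.0384). Its T98G call was lost without PEPD-OE replicate 3 (0.116) or NC replicate 2 (0.117), and its U251 call without PEPD-OE replicate 1 (0.245) or 2 (0.0565) or any NC replicate (0.0568, 0.162 and 0.109 without replicates 1, 2 and 3).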

How the data were processed

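Polyadenylated RNA of 12 libraries (T98G and U251, PEPD-OE and NC, 3 each) was sequenced from strand-marked cDNA, per the labels' protocols. HISAT2, Subread, featureCounts, fastp and FastQC are named with GRCh38 in the submitters' processing notes, with no version or role. Which annotation release was counted, and with which strand setting, is not given in the sources used here. For each library the authors deposited raw counts per gene, in whole numbers with no sign of normalization, and 0 of the table's sample columns were left without a sample.

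Testing used edgeR 4.0.16 (R 4.3.3) on these counts: genes kept by filterByExpr (minimum count 10), TMM scaling, and a robust quasi-likelihood fit with 1 mean per group over all 12 libraries (8 residual degrees of freedom), with two-sided p-values adjusted by Benjamini and Hochberg over 8773 genes and calls at an adjusted p under 0.05. SE is the log2 fold change over the square root of F. With 3 libraries against 3 an exact permutation test cannot go below 0.1, so no value was tested outside the model. Replicates of a group differed by more than counting noise (chi-square per degree of freedom 1.31 to 2.53, the highest for U251 PEPD-OE replicate 1). The depth limits precision, and the CPM of 3 counts covers counting error only. Positions and exons come from GENCODE 29, where 58228 identifiers (92.1%) and all 42 members were found. Promoter windows come from RefSeq GRCh38.p14, and 39 members matched. The scripts were tested on simulated counts.

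The members, the lists of other ER and marker genes, the contrasts and the alternatives were chosen with earlier results of these data known. Per-library values are given for members called in at least 1 of the 4 contrasts, and the others by range and count. From the other lists the genes named are up to 3 called per list and line by size of change, and of these mainly the ones whose call held without each library. Alternatives were DESeq2 1.42.0, scaling by RLE or by the upper quartile, no count filter, a filter of 1 CPM in 3 libraries, the lines fitted apart, a block for the replicate number, a fit without robust estimation, a test of changes beyond 0.5 on the log2 scale, genes without opposite-strand overlap, the table without mitochondrial genes, TALAM1, MALAT1 and BEST1, each library left out and, added after seeing the data, both T98G libraries numbered 2 left out.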

Additional observations from a re-analysis of the deposited data

Results flagged for a closer look

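The response of 11 members to PEPD over-expression differed between the lines, in the test of the interaction (T98G log2 fold change less that of U251). The differences were -0.77 for HSPA5, -1.04 for HYOU1 and -2.18 for SSR3, genes that fell in T98G and rose in U251. They were -0.78 for CANX, -0.90 for DNAJB11, -1.25 for DNAJC3, -1.56 for DNAJC10, -1.24 for SEL1L and -1.33 for SEC61B, genes that fell in T98G and did not pass in U251. They were 1.02 for ERO1B and 0.59 for OS9, which rose in T98G and had negative log2 fold changes in U251 that did not pass. Negative differences made up 23.1% of the members tested, against 13.6% of all genes tested. The differences of DNAJC3, SEL1L, ERO1B, OS9 and SEC61B were lost when some single libraries were left out. So were the calls of HYOU1, SEL1L, ERO1B and OS9 in T98G and those of HSPA5 and SSR3 in U251. DESeq2 called 5 negative differences and 1 positive. No cause was tested.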

How the results depend on the processing

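No result changed sign in a way that reversed a call under any alternative run. Of the comparisons of single members with their value under an alternative, 3390 kept their side of the threshold, 146 lost it and 18 gained it. Counts within 1.5 times of the values reported are not repeated. The test against a log2 fold change of 0.5 called 801 higher and 584 lower genes in T98G, 49 and 27 in U251, 784 and 689 for the difference and 1279 and 1316 between the NC groups. Among members it called 0 higher and 4 lower in T98G, 0 and 0 in U251, 0 and 5 for the difference, and 8 and 0 between the NC groups. Without genes that overlap the opposite strand, which leaves fewer genes, the counts were 650 and 490 in T98G, 134 and 111 in U251, 472 and 445 for the difference and 922 and 921 between the NC groups. The member counts were then 1 higher in T98G, 0 lower in U251, 1 higher and 5 lower for the difference, and 10 higher and 0 lower between the NC groups. DESeq2 called 157 higher genes in U251, 766 lower for the difference, and among members 0 higher in T98G, 2 higher in U251, 1 higher and 5 lower for the difference and 10 higher between the NC groups. With no count filter 257 genes fell in U251, no member rose in T98G (0) and none fell in U251 (0). The causes of these shifts were not tested, apart from the smaller sets of genes.

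With single libraries left out, T98G counts ran from 1296 to 1638 higher and 1054 to 1385 lower genes, with 0 to 3 and 8 to 12 members. U251 counts ran from 218 to 356 higher and 208 to 389 lower genes, with 1 to 3 and 0 to 1 members. For the difference they ran from 1096 to 1224 higher and 1020 to 1165 lower genes, with 0 to 2 and 6 to 10 members. Between the NC groups they ran from 1911 to 2273 higher and 1899 to 2237 lower genes, with 11 to 17 and 2 to 3 members. Without both T98G libraries numbered 2, added after seeing the data, 0 members were higher in T98G and 11 higher between the NC groups. Over all genes the deviations of same-numbered libraries correlated at -0.042 to 0.049, too little to treat the numbers as pairs, although the T98G libraries numbered 2 shared the blood cell markers and had the highest value. With the replicate number as a block the member calls were 3 higher and 10 lower in T98G, 3 and 1 in U251, 2 and 9 for the difference and 16 and 2 between the NC groups. Members at low levels rest on few counts, and there mainly large changes, such as that of DNAJC10, could pass.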
